A study of Mus musculus with 44 samples.

Results

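The 9 genes described here encode parts of the complement system: the chains of C1q (C1qa, C1qb and C1qc), the protease C1r (C1ra), the components C4 (C4b) and C3, the receptors of the fragments C3a and C5a (C3ar1 and C5ar1), and the C1 inhibitor (Serping1). They were chosen by their symbols, and each matched 1 of the 54146 gene identifiers of the count table. The comparisons ask which of 2 brain cell types, microglia or astrocytes, holds each transcript, and whether the level depends on the Apoe genotype. RNA was sequenced from primary mouse microglia and astrocytes that had been purified and grown in medium sold for human microglia or human astrocytes, with no treatment. Total RNA was made into NEBNext Ultra libraries and read as pairs of 150 bases on an Illumina HiSeq. Each cell type had 4 libraries from Apoe knock-out (KO) mice, 6 from APOE44 mice, 6 from APOE33 mice and 6 from wild-type mice. Among these, 1 KO, 3 APOE44, 4 APOE33 and 3 wild-type libraries of each cell type were from females. The names APOE44 and APOE33 stand for 2 copies of the human APOE4 or APOE3 allele. The sources used here give neither strain nor age. The protocol states that RNA was extracted in a single batch, but all 12 wild-type libraries carry the tag of batch 2 and the other 32 that of batch 1, without saying what the tag stands for, so a difference from wild type cannot be told apart from a difference between the batches. The labels do not say whether replicates came from separate animals or cultures, so p-values measure the spread between these libraries, which may be technical.

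Complement is a cascade of serum proteins that tags particles for removal. C1q binds a target and activates the proteases C1r and C1s, which cleave C4; the cascade then cleaves C3 and C5, and the small fragments C3a and C5a act on receptors on myeloid cells. The C1 inhibitor blocks C1r and C1s. In the mouse brain, C1q is known mainly as a product of microglia, and C3 as a gene that astrocytes can raise in inflammation.

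The libraries held 86313947 to 120505499 counts in microglia and 83239599 to 143150569 in astrocytes. Levels are given in CPM, the count relative to a library size scaled by the trimmed mean of M-values (TMM), and a gene is said to have passed the test where edgeR's quasi-likelihood test gave a Benjamini-Hochberg adjusted p under 0.05 over all genes tested. The mouse Apoe gene (7:19696109-19699188 of GRCm38) fitted the labels: its level in microglia was 7.45 to 27.7 CPM in KO, 46.3 to 59.9 in APOE44, 44.5 to 80.8 in APOE33 and 45154 to 60542 in wild-type libraries, and in astrocytes 9.28 to 13.2, 19.7 to 29.5, 19.8 to 30.7 and 4972 to 6447 CPM in the same order of genotypes. Human APOE has no entry in the table, so only reads assigned to the mouse gene are seen there. The astrocyte APOE33 library of replicate 1 has a genotype tag that names wild type, whereas its title, source name and batch tag are those of APOE33, and it was kept there; its mouse Apoe level was among the 19.8 to 30.7 CPM of the APOE33 astrocytes, far below the 4972 to 6447 CPM of wild type. Without it, all 54 member results of the 6 comparisons it enters kept their direction and their side of the threshold.

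The genes lie in a few places of the mouse genome (GRCm38). The C1q genes stand side by side on the minus strand of chromosome 4 in the order C1qb (ENSMUSG00000036905.8, 4:136880129-136886187), C1qc (ENSMUSG00000036896.5, 4:136889804-136893065) and C1qa (ENSMUSG00000036887.5, 4:136895917-136898803), with gaps of 3.62 and 2.85 kb between neighbours. C1ra (ENSMUSG00000055172.10, 6:124512405-124523443, plus strand) lies 6.9 kb from the C1s gene C1s1 and 1.76 kb from C1rl, and C3ar1 (ENSMUSG00000040552.8, 6:122847138-122856161, minus strand) is 1.66 Mb away on the same chromosome. C3 (ENSMUSG00000024164.15, 17:57203970-57228136) and C4b (ENSMUSG00000073418.4, 17:34728380-34743882) are both on the minus strand of chromosome 17. The microRNA gene Mir6978 lies within C3 on the same strand, so reads of the 2 cannot be told apart there. C5ar1 (ENSMUSG00000049130.6, 7:16246743-16259540, minus strand) lies 2.59 kb from C5ar2 and 3.44 Mb from Apoe, and Serping1 (ENSMUSG00000023224.12, 2:84765387-84775444, minus strand) is on chromosome 2. C4b has a near-identical copy, C4a, at a distance of 65.2 kb, and C1ra has the copy C1rb; how the authors' counting divided reads among copies is not given, so the levels of C4b and C1ra are uncertain to that extent. C4a reached 2.59 ± 0.592 CPM (SD, n = 6) in APOE44 astrocytes, its highest group mean, and C1rb stayed at or below 0.308 CPM in all libraries.

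RefSeq's promoter table (GRCm38.p6; 250 bases before to 50 after the start of the gene) held 6 of the 9 genes: C1qb, C1qc, C1ra, C3, C3ar1 and C5ar1. The start is RefSeq's own, which lies 216 bases inside the gene given above for C1ra, 151 for C1qc, 202 for C5ar1 and 4 for C3ar1, at the same base for C3, and 13 bases outside it for C1qb (−13). The promoters of 2 genes that were higher in microglia (C1qb and C1qc) and of 2 that were higher in astrocytes (C1ra and C3) are shown because the results turn on that contrast; capitals mark every match, on either strand, to 4 motifs chosen after the sequences had been seen. The motifs are AGGAAG, the core bound by PU.1 and other ETS factors, TTGCNNAA of the C/EBP family, TTCNNNGAA of STAT factors and an NF-kB motif.
C1qb (chr4:136886151-136886450, minus strand): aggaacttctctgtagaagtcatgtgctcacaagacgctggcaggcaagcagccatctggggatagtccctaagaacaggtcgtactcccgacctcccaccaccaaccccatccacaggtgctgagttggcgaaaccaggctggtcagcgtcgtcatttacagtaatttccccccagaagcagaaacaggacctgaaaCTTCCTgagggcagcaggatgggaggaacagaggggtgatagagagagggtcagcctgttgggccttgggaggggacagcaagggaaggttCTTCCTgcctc
C1qc (chr4:136892865-136893164, minus strand): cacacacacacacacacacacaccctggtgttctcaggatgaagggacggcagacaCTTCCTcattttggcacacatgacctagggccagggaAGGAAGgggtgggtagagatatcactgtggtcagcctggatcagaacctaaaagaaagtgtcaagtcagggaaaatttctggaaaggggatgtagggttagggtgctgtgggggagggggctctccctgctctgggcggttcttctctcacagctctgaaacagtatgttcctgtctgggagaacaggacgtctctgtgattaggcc
C1ra (chr6:124512371-124512670, plus strand): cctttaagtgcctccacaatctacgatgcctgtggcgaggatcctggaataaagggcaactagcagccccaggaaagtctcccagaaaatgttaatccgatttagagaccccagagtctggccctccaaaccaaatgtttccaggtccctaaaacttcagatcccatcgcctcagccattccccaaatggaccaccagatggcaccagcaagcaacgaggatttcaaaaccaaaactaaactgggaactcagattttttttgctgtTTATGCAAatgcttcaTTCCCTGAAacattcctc
C3 (chr17:57228087-57228386, minus strand): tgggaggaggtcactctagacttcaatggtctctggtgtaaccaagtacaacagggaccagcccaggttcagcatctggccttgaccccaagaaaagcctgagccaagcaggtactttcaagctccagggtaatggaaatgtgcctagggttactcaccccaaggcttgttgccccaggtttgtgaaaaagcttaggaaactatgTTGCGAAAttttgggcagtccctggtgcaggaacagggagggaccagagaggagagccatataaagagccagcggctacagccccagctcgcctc
AGGAAG was found 2 times in C1qb, 2 times in C1qc, 1 time in C3ar1 and 3 times in C5ar1, and not in the windows of C1ra and C3. TTGCNNAA was found 1 time each in C1ra and C3, TTCNNNGAA 1 time in C1ra, and the NF-kB motif 1 time in C3ar1, where it overlaps an AGGAAG by 1 base. Among 32851 promoters of the same length, 35.4% held AGGAAG, 10.8% TTGCNNAA, 8.3% TTCNNNGAA and 1.63% the NF-kB motif. A match describes the letters of a window and no more.

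Between the cell types, the C1q chains and both receptors were higher in microglia, and C1ra, C4b, C3 and Serping1 were lower there than in astrocytes. All 9 genes passed the test in every genotype, with the same 5 higher and 4 lower. Most genes differed between these cell types: 80.9% of genes tested passed in KO, 84.3% in APOE44, 83.9% in APOE33 and 85% in wild type, so the number of members that passed is near the background. Higher in microglia were 35.3% of genes in KO, 37.1% in APOE44, 37.3% in APOE33 and 39.6% in wild type, and lower there 45.6%, 47.2%, 46.6% and 45.4%. Microglia and astrocyte libraries did not overlap for any of the 9 genes in APOE44, APOE33 and wild type, or for 8 of the 9 in KO, where C3 overlapped. The share of all genes without overlap was not counted, so this is not read as particular to the 9 genes. Because these are bulk samples, fewer cells of a type and less RNA per cell cannot be told apart.

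C1qa, the A chain of C1q, was far higher in microglia than in astrocytes. Its level was 4859.8, 4178, 3912 and 4652 CPM in the KO microglia and 99.4, 110.1, 48.4 and 76.3 CPM in the KO astrocytes. In APOE33, the lowest, median and highest libraries had 4823, 5020.1 and 5674 CPM in microglia, against 37.7, 65.7 and 148 CPM in astrocytes. The means were 4649.9 ± 386 CPM in APOE44 microglia against 67.5 ± 38.0 CPM in APOE44 astrocytes, and 3180.0 ± 416 CPM in wild-type microglia against 88.4 ± 38.4 CPM in wild-type astrocytes (SD, n = 6 each). Every microglia library was thus far above every astrocyte library, and the astrocyte libraries spread over a wider relative range. The log2 ratio of microglia to astrocytes was 5.64 ± 0.42 (SE) in KO, 6.15 ± 0.35 in APOE44, 6.17 ± 0.35 in APOE33 and 5.20 ± 0.34 in wild type, or 49.9, 70.9, 72.2 and 36.7-fold. The adjusted p in APOE33 was 2.46e-18.

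C1qb and C1qc, the other chains, followed the same order. C1qb averaged 3665 ± 254 CPM in KO microglia (SD, n = 4) against 58.5 ± 17.4 CPM in KO astrocytes, and 3625 ± 154 CPM in APOE33 microglia (n = 6) against 45.7 ± 24.1 CPM in APOE33 astrocytes. C1qc averaged 3884 ± 324 CPM in KO microglia against 59.9 ± 18.9 CPM in KO astrocytes, and 4034 ± 264 CPM in APOE33 microglia against 46.4 ± 22.1 CPM in APOE33 astrocytes. The microglia to astrocyte ratio was between 52.8-fold in wild type and 85.5-fold in APOE33 for C1qb, and between 47.7-fold in wild type and 93.1-fold in APOE33 for C1qc. Together the 3 chains averaged 1.20% of the TMM-scaled library size in KO microglia, 1.21% in APOE44, 1.27% in APOE33 and 0.833% in wild type.

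The receptors were also far higher in microglia. C3ar1, the C3a receptor, had 858, 647, 741 and 777 CPM in KO microglia, against 15.7, 15.5, 8.17 and 12.8 CPM in KO astrocytes. In wild type its lowest, median and highest microglia libraries had 1136, 1204 and 1268 CPM, against an astrocyte mean of 8.22 ± 3.04 CPM (SD, n = 6). The log2 ratio for C3ar1 was 5.81 ± 0.37 (SE) in KO, 6.85 ± 0.32 in APOE44, 6.95 ± 0.32 in APOE33 and 7.23 ± 0.32 in wild type, where the adjusted p was 9.65e-22. C5ar1, the C5a receptor, averaged 126 ± 17.3 CPM in KO microglia (SD, n = 4) against 2.96 ± 1.41 CPM in KO astrocytes, and 351 ± 48.0 CPM in wild-type microglia (n = 6) against 3.23 ± 0.984 CPM in wild-type astrocytes. Its ratio was 41.4-fold in KO, 110-fold in APOE44, 87.5-fold in APOE33 and 111-fold in wild type.

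**Figure D1:**
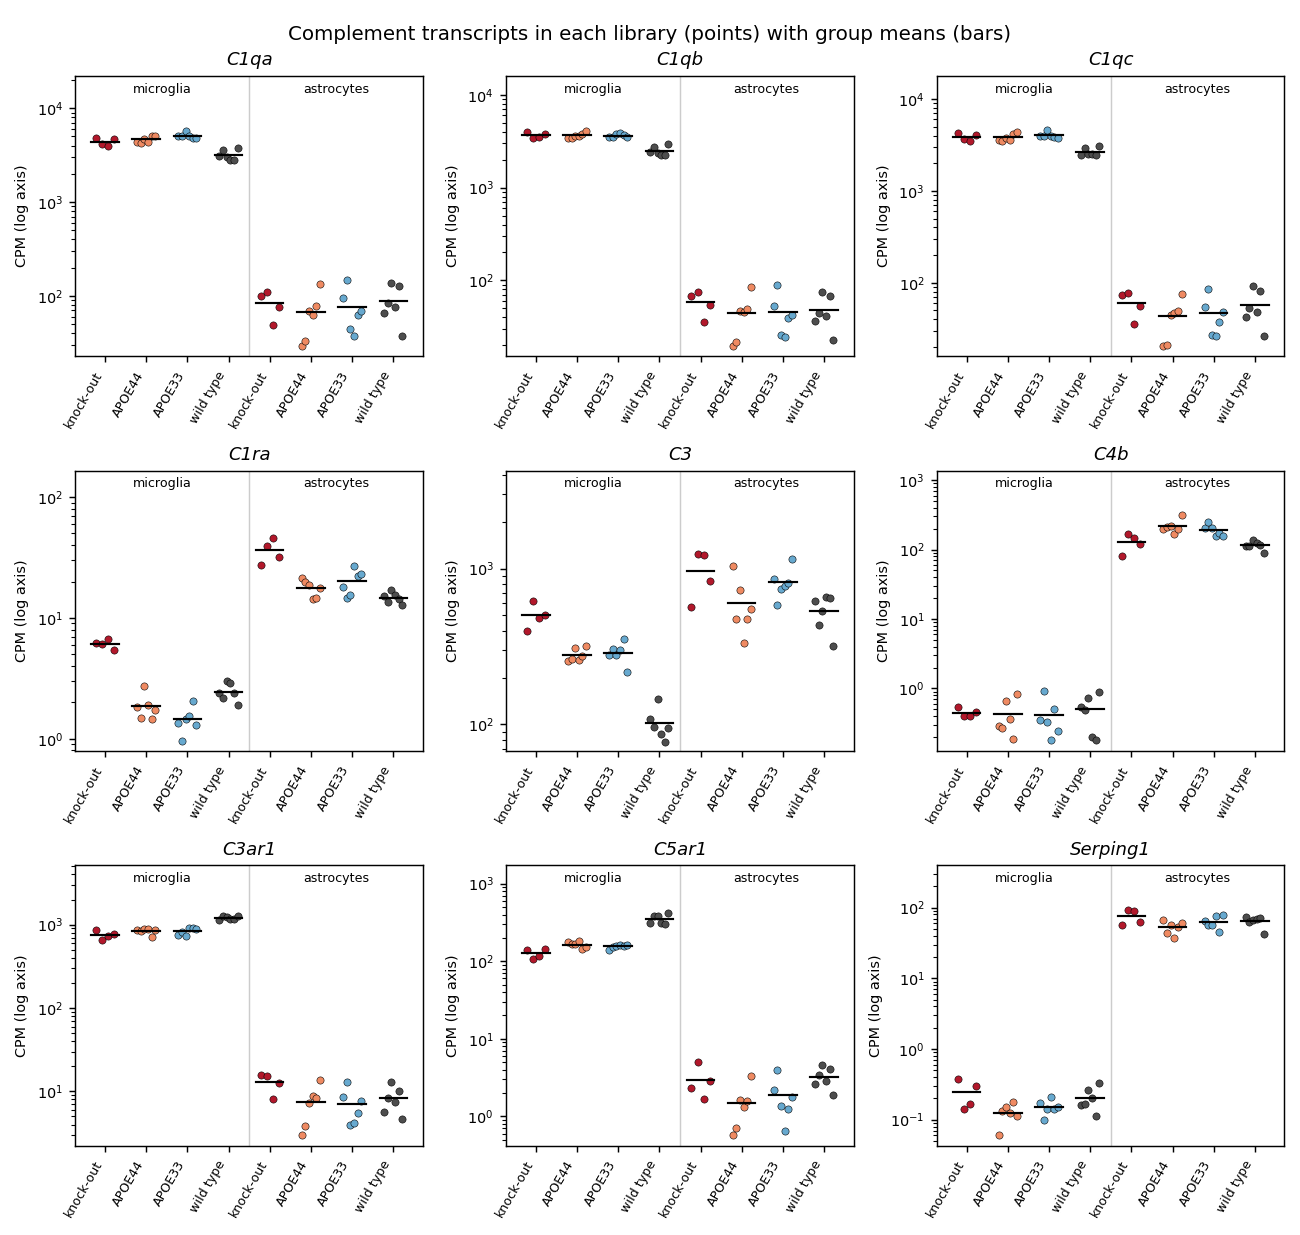
Level of each of the 9 complement genes in every library, as CPM after TMM scaling on a log axis; microglia stand left of astrocytes, each as KO, APOE44, APOE33 and wild type, points are libraries and bars are group means. The C1q chains, C3ar1 and C5ar1 sit higher in microglia, C1ra, C4b and Serping1 in astrocytes, and the C3 groups lie nearest to each other, with KO microglia at 396 to 621 CPM and KO astrocytes at 566 to 1232 CPM.

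C4b and Serping1 were the genes furthest below their astrocyte level in microglia. C4b, the component cleaved after C1 is activated, had 0.181 to 0.908 CPM over all microglia libraries, from 14 to 74 counts each. In astrocytes it had 80.6, 168, 148 and 119 CPM in KO, and its lowest, median and highest libraries were 166, 206 and 315 CPM in APOE44, 154, 187 and 249.6 CPM in APOE33, and 90.1, 114 and 137 CPM in wild type. Thus the microglia level of C4b was below 1 CPM in every library. The log2 ratio of microglia to astrocytes was −8.09 in KO, −8.95 in APOE44, −8.85 in APOE33 (adjusted p 1.46e-24) and −7.83 in wild type, or 272, 496, 462 and 227-fold lower. Serping1, the inhibitor of C1r and C1s, had 0.0613 to 0.373 CPM in microglia, from 6 to 28 counts a library. Its astrocyte level averaged 75.2 ± 18.1 CPM in KO (SD, n = 4), 53.1 ± 11.2 CPM in APOE44, 62.9 ± 12.7 CPM in APOE33 and 64.3 ± 11.1 CPM in wild type (n = 6 each). The microglia level of Serping1 was 285-fold lower in KO, 409-fold in APOE44, 424-fold in APOE33 (adjusted p 1.2e-28) and 307-fold in wild type.

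C1ra and C3 were also lower in microglia, by much less. C1ra, the protease that C1q activates, had 6.20, 6.08, 6.67 and 5.38 CPM in KO microglia against 27.6, 39.5, 45.5 and 31.9 CPM in KO astrocytes. In APOE33 its lowest, median and highest libraries had 0.958, 1.41 and 2.05 CPM in microglia, against 14.7, 20.1 and 27.0 CPM in astrocytes. The means were 1.86 ± 0.465 CPM in APOE44 microglia against 17.7 ± 2.81 CPM in APOE44 astrocytes, and 2.45 ± 0.419 CPM in wild-type microglia against 14.7 ± 1.49 CPM in wild-type astrocytes (SD, n = 6 each). The KO libraries were thus the highest for C1ra in both cell types. C1ra was 5.80-fold lower in microglia in KO, 9.36-fold in APOE44, 13.8-fold in APOE33 and 5.84-fold in wild type. C3, the central component, had 396, 621, 482 and 501 CPM in KO microglia and 566, 1232, 1226 and 835 CPM in KO astrocytes, 2 groups that overlap. In wild type its lowest, median and highest libraries had 77.5, 95.3 and 145 CPM in microglia, against 318, 578 and 657 CPM in astrocytes. The log2 ratio for C3 was −0.78 ± 0.26 (SE; adjusted p 0.00596) in KO, −1.04 ± 0.20 (1.56e-05) in APOE44, −1.55 ± 0.21 (1.9e-08) in APOE33 and −2.40 ± 0.21 (5.93e-13) in wild type.

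**Figure D2:**
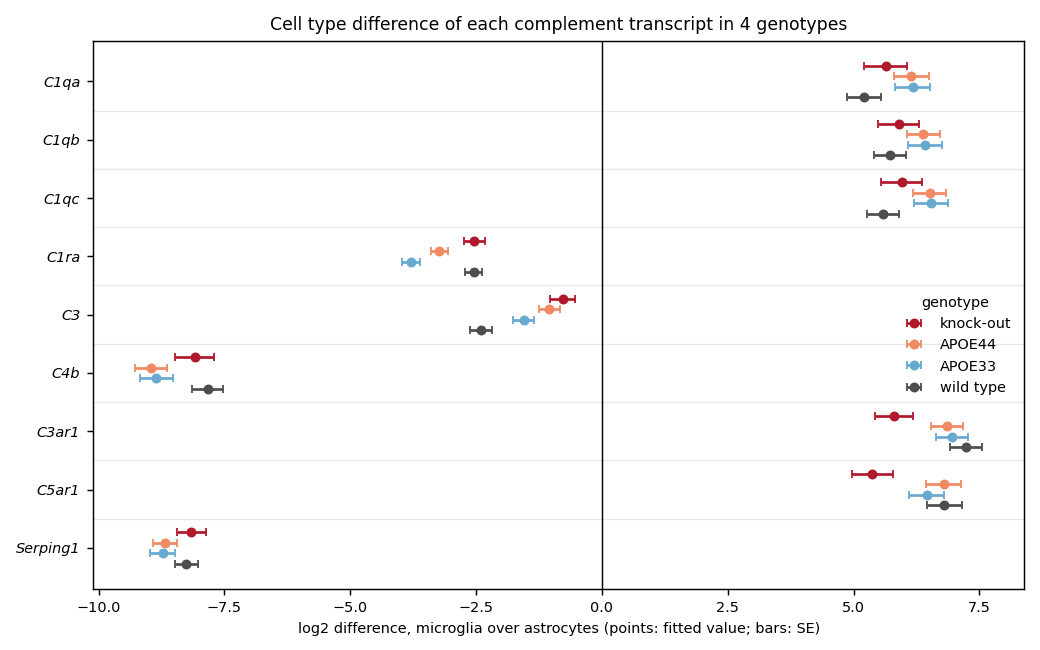
Log2 ratio of microglia to astrocytes for each of the 9 genes in KO, APOE44, APOE33 and wild type, from edgeR's fit of all 44 libraries; bars are standard errors. C1qa, C1qb, C1qc, C3ar1 and C5ar1 lie between 5.20 and 7.23, C4b and Serping1 between −8.95 and −7.83, and C1ra and C3 between −3.79 and −0.78.

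Levels can be set side by side between genes only per length of transcript. In APOE33 microglia, the CPM per kb of merged exon was 4875 ± 301 for C1qa, 3332 ± 142 for C1qb and 2089 ± 137 for C1qc (SD, n = 6 each), then 194 ± 19.1 for C3ar1, 60.7 ± 3.73 for C5ar1 and 56.3 ± 8.58 for C3. C1ra followed at 0.484 ± 0.119 CPM per kb, with C4b at 0.0738 ± 0.0463 and Serping1 at 0.0653 ± 0.0160 last. C5ar1 and C3 did not differ beyond their spread in that order, nor did C4b and Serping1. The order of C5ar1 and C3 depended on the genotype: C3 was at 97.2 ± 18.0 and C5ar1 at 49.2 ± 6.72 CPM per kb in KO microglia (SD, n = 4), whereas C3 was at 19.7 ± 4.65 and C5ar1 at 137 ± 18.7 in wild-type microglia (n = 6).

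In APOE33 astrocytes, C3 led with 159 ± 36.2 CPM per kb, followed by C1qa at 73.1 ± 38.8, C1qb at 42.0 ± 22.1, C4b at 33.4 ± 6.35, Serping1 at 27.0 ± 5.48 and C1qc at 24.0 ± 11.5 (SD, n = 6 each). Across libraries, the values from C1qa through C1qc overlapped in that order. Within each library, however, the chains kept their order. The ratio per kb was 1.62 to 1.87 for C1qa over C1qb and 0.536 to 0.635 for C1qc over C1qb. C1ra had 6.73 ± 1.63 CPM per kb, C3ar1 1.66 ± 0.794 and C5ar1 0.727 ± 0.449. The ratio of C1qa to C1qb per kb in microglia was 1.25 ± 0.0487 in KO, 1.33 ± 0.0542 in APOE44, 1.46 ± 0.0808 in APOE33 and 1.34 ± 0.0246 in wild type. The 3 chains enter the C1q protein in equal number, and here their transcripts per kb kept the order C1qa, C1qb, C1qc. The place of C1qc below C1qb rests on the merged exon length, 1931 bases for C1qc and 1088 for C1qb. In CPM alone, C1qc was above C1qb in APOE33 microglia (4034 ± 264 against 3625 ± 154). The length of transcript that the cells made was not tested.

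**Figure D3:**
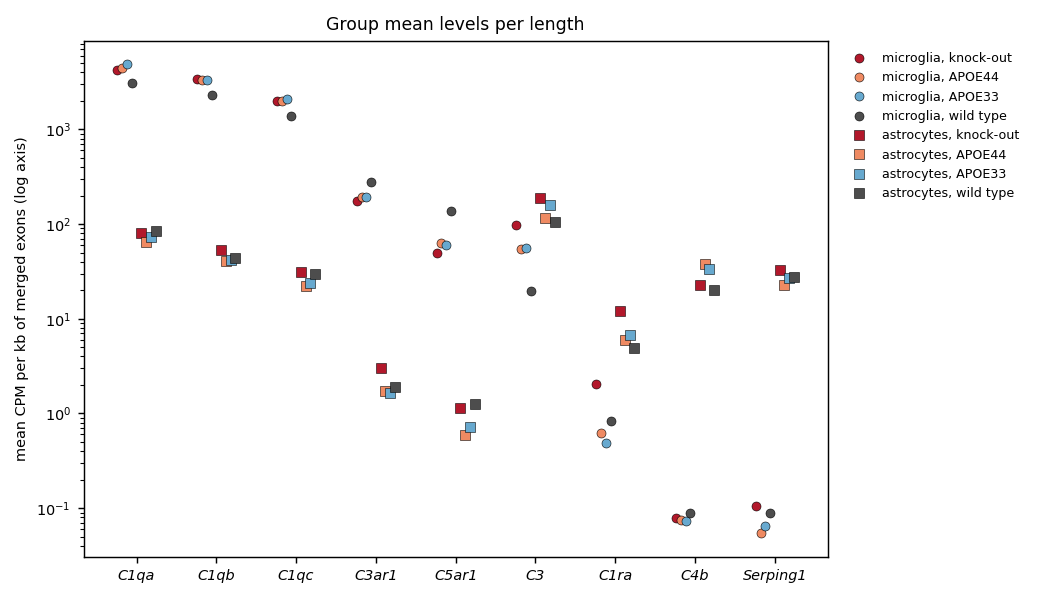
Group mean level per kb of merged exon (CPM per kb, log axis) of the 9 genes, ordered by their level in microglia; circles are microglia, squares astrocytes, coloured by genotype. In APOE33 microglia the genes run from C1qa at 4875 to Serping1 at 0.0653 CPM per kb, and in APOE33 astrocytes C3 is at the top with 159.

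The C1q and receptor transcripts in the astrocyte libraries stood beside transcripts of microglial markers. The summed level of 18 microglial markers, all of them with counts, was 216 to 421 CPM in KO, 113 to 389 in APOE44, 132 to 431 in APOE33 and 146 to 398 CPM in wild-type astrocytes; the same sum was 28446 to 30069.5, 26972 to 33770.2, 28615 to 34818 and 21229.7 to 25051 CPM in the microglia of these genotypes. The astrocyte sum was thus 1.11% of the microglial one in KO, 0.712% in APOE44, 0.744% in APOE33 and 1.16% in wild type. C1qa stood at 1.90%, 1.45%, 1.50% and 2.78% of its microglial level in the astrocytes of the same genotypes, C3ar1 at 1.72%, 0.892%, 0.855% and 0.682%, and C5ar1 at 2.34%, 0.920%, 1.20% and 0.919%. Single microglial markers ran between 0.225% and 4.75%, a range that holds all 5 genes. Over the 22 astrocyte libraries C1qa varied 5.01-fold, but its level relative to the marker sum varied 1.67-fold, between 22.4% and 37.4%; in microglia that share was 12.8% to 17.5%. The part of residual microglia in the astrocyte levels of these 5 genes was not tested beyond these values.

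**Figure D4:**
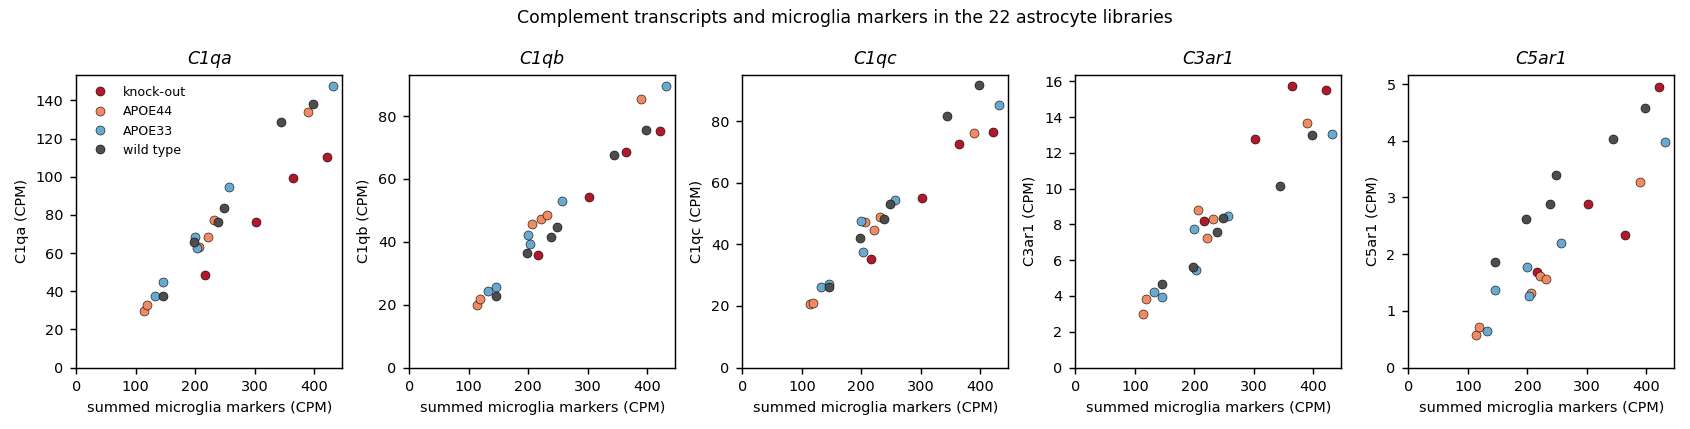
Level of C1qa, C1qb, C1qc, C3ar1 and C5ar1 (CPM) against the summed level of 18 microglial markers (CPM) in the 22 astrocyte libraries, coloured by genotype. The levels of all 5 genes go up with the marker sum, which ran from 113 to 431 CPM.

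In the reverse direction, 18 astrocyte markers summed to 109 to 176 CPM in KO, 63.3 to 143 in APOE44, 56.0 to 148 in APOE33 and 76.5 to 126 CPM in wild-type microglia, or 0.847%, 0.507%, 0.435% and 0.541% of their astrocyte level. C4b in microglia was at 0.348%, 0.198%, 0.221% and 0.439% of its astrocyte level in these genotypes, and Serping1 at 0.327%, 0.238%, 0.241% and 0.320%, all below the share of the marker sum. C1ra and C3 were above the share of the sum: C1ra at 16.8%, 10.5%, 7.19% and 16.7%, and C3 at 51.8%, 46.7%, 35.4% and 18.9%. Single astrocyte markers reached 53.9% in KO, 31.0% in APOE44, 42.6% in APOE33 and 40.2% in wild type, so C1ra lay within the range of single markers in all 4 genotypes and C3 in all but APOE44. The median single marker, at 0.428%, 0.539%, 0.390% and 0.375% in the same order, was far below C1ra and C3. Cldn10 in KO and Gjb6 in APOE44 were the markers at 0 counts in microglia. Markers of mural cells and fibroblasts were present in the astrocyte libraries too: 11 of them summed to 136 to 305 CPM in KO, 276 to 355 in APOE44, 278 to 363 in APOE33 and 317 to 473 CPM in wild-type astrocytes, against at most 6.19 CPM in any microglia library. Their part in the astrocyte levels of C1ra, C3, C4b and Serping1 was not tested.

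In KO against APOE33, both of batch 1, C1ra and C3 rose and C5ar1 fell in microglia, and C1ra also rose in astrocytes. Of the 9 genes, 3 passed the test in microglia, where 22.7% of all genes tested passed, 10.9% higher and 11.9% lower. C1ra had 5.38 to 6.67 CPM in the 4 KO microglia libraries, against 0.958 to 2.05 CPM in the 6 APOE33 libraries, so the groups were far apart. Its log2 fold change was 2.03 ± 0.20 (SE; adjusted p 9.18e-06), or 4.08-fold. C3 had 396 to 621 CPM in KO microglia against 218 to 352 CPM in APOE33, again without overlap, and rose 1.73-fold (log2 0.79 ± 0.14, adjusted p 0.00106). C5ar1 had 107 to 142 CPM in KO microglia against 139 to 164 CPM in APOE33, with overlap, and fell by 0.31 ± 0.09 on the log2 scale (adjusted p 0.0149). The C5ar1 call was lost without KO replicate 2 (adjusted p 0.0572) or KO replicate 3 (0.0608), and with the astrocyte marker level as a covariate (0.0734). C1qa was at log2 −0.23 ± 0.08 (adjusted p 0.0552), C1qb at 0.01, C1qc at −0.07, C3ar1 at −0.12, C4b at 0.32 and Serping1 at 0.74, none of which passed. The fall of C1qa did pass with DESeq2 (adjusted p 0.0224), without sex in the fit (0.0378) and without KO replicate 1 (0.0324). Markers of border macrophages moved in the same libraries: 4 of the 6 tested rose in KO microglia, and their summed level was 1835 to 2067 CPM in KO against 1172 to 1716 CPM in APOE33; their part in the C1ra and C3 results was not tested. Of 16 astrocyte markers tested in microglia, 2 rose in KO. Of 18 microglial markers, 1 rose and 5 fell (median log2 −0.13). Of 12 oligodendrocyte lineage markers, 0 rose and 5 fell (median −2.06). With the astrocyte marker level as a covariate, C1ra and C3 still passed. Apart from that fit, the part of these markers in the results above was not tested.

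In KO astrocytes C1ra had 27.6 to 45.5 CPM against 14.7 to 27.0 CPM in APOE33 astrocytes and rose 1.70-fold (log2 0.77 ± 0.20, adjusted p 0.0195). It was the only one of the 9 genes to pass there, where 17.2% of all genes tested passed (8.37% higher and 8.83% lower), and the call was lost without APOE33 replicate 3 (adjusted p 0.0597) or KO replicate 3 (0.0523), with no filter (0.0518), with the 2 compared groups alone (0.0698) and with the replicate block (0.0983). C4b was at log2 −0.61 ± 0.22 (adjusted p 0.0722) and C3ar1 at 1.03 ± 0.41 (0.0974). The fall of C4b did pass with DESeq2 (adjusted p 0.0115), without sex in the fit (0.0476) and without KO replicate 2 (0.0472). It also passed with the microglial marker level as a covariate (0.0224). The C1q chains were at log2 0.32 to 0.54 and C5ar1 at 0.77, and C3 at −0.09 and Serping1 at 0.10, none of which passed. All 18 microglial markers were higher in KO astrocytes, with a median log2 fold change of 0.81, and 1 passed the test. With the microglial marker level as a covariate, the direction of 2 chains turned: C1qa fell by 0.50 (adjusted p 0.000125) and C1qb fell by 0.24 (0.0149). The rise of C1ra was larger in microglia than in astrocytes: the difference of the log2 fold changes was 1.25 ± 0.26 (95% confidence interval 0.72 to 1.78, adjusted p 0.000781), in a test that 15.8% of all genes passed. For C3 that difference was 0.77 (adjusted p 0.123), for C3ar1 −1.15 ± 0.41 (0.051) and for C5ar1 −1.08 (0.122), which did not pass.

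Between APOE44 and APOE33, none of the 9 genes passed edgeR's test in either cell type, where 0.84% of all genes tested passed in microglia and 0.703% in astrocytes. DESeq2 also called 0 of the 9 in both. At an unadjusted p under 0.05 the count was 0 of 9 in microglia and 1 of 9, C3, in astrocytes. In microglia the 95% confidence interval of the log2 fold change was −0.28 to 0.02 for C1qa, −0.11 to 0.12 for C1qb, −0.23 to 0.07 for C1qc, −0.30 to 0.20 for C3, −0.13 to 0.16 for C3ar1 and −0.09 to 0.22 for C5ar1, so that changes beyond these bounds are outside the intervals. For the low genes the intervals were wider: −0.04 to 0.72 for C1ra, −0.69 to 0.96 for C4b and −0.92 to 0.47 for Serping1. In astrocytes, C3 had 332, 513 and 1031 CPM (lowest, median and highest) in APOE44 against 581, 789.8 and 1143 CPM in APOE33, groups that overlap. Its log2 fold change was −0.61 ± 0.20 (interval −1.04 to −0.17, adjusted p 0.29). Serping1 was at −0.32 (−0.65 to 0.01), C4b at 0.17 (−0.22 to 0.56) and C1ra at −0.21 (−0.58 to 0.16). The astrocyte intervals of 5 genes were wider than 1 log2 unit. They were −0.94 to 0.73 for C1qa, −0.76 to 0.84 for C1qb and −0.81 to 0.71 for C1qc. For C3ar1 the interval was −0.65 to 0.87, and for C5ar1 −1.27 to 0.70. The difference between the cell types in this effect passed for 0 of the 9 genes in edgeR and in DESeq2 and for 1 of 9, C1ra, at an unadjusted p under 0.05 (interval 0.09 to 1.03); 0.867% of all genes passed that test.

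Against wild type, the microglia of all 3 other genotypes had more C3 and C1q and less of both receptors, with the batch tag inseparable from genotype. The test passed for 7 of 9 genes in KO, 6 in APOE44 and 7 in APOE33 microglia, where 42.4%, 45.4% and 44.8% of all genes tested passed. These comparisons share the wild-type libraries. C3 had 396 to 621 CPM in KO, 254 to 318 in APOE44 and 218 to 352 in APOE33, against 77.5 to 145 CPM in wild-type microglia, so wild type did not overlap with the others. It was 5.05-fold higher in KO (log2 2.34 ± 0.15, adjusted p 1.36e-09), 2.77-fold in APOE44 and 2.83-fold in APOE33. The C1q chains were higher as well: C1qa by log2 0.45, 0.55 and 0.69 in KO, APOE44 and APOE33, C1qb by 0.55, 0.56 and 0.56, and C1qc by 0.52, 0.53 and 0.62. C1qb, for example, averaged 3665 ± 254 CPM in KO (SD, n = 4), 3643 ± 244 in APOE44 and 3625 ± 154 in APOE33, against 2483 ± 280.1 CPM in wild type (n = 6 each). Both receptors were lower than in wild type. C5ar1 averaged 126 ± 17.3 CPM in KO (SD, n = 4), 164 ± 14.8 in APOE44 and 156 ± 9.60 in APOE33, against 351 ± 48.0 CPM in wild type (n = 6 each), and was 2.81-fold lower in KO (adjusted p 6.48e-10), 2.14-fold in APOE44 and 2.23-fold in APOE33. C3ar1 averaged 756 ± 87.3, 838 ± 61.8 and 837 ± 82.2 CPM in KO, APOE44 and APOE33, against 1205 ± 57.3 CPM in wild type, with log2 fold changes of −0.67, −0.52 and −0.53. C1ra split the genotypes: it was higher in KO (log2 1.32), at −0.39 in APOE44 (adjusted p 0.0581, not passed) and lower in APOE33 (−0.77, adjusted p 0.000788). The microglial markers also stood higher than in wild type, with 13 of 18 rising in KO, 15 in APOE44 and 15 in APOE33. Their medians were log2 0.34, 0.46 and 0.48, and their part in the C1q and receptor values was not tested. Other markers moved in these microglia as well: those of the oligodendrocyte lineage rose in 10 of 12 in APOE44 (median log2 3.14), 6 of 12 in APOE33 (2.00) and 3 of 12 in KO (−0.49), with sums of 219 to 257 CPM in KO, 316 to 405 in APOE44 and 243 to 348 in APOE33, against 186 to 269.7 CPM in wild type. Border macrophage markers rose in 4 of the 6 tested in KO (median 1.54), 3 in APOE44 and 2 in APOE33. In APOE44 and in APOE33, 1 of the 6 fell. Their summed level was 1835 to 2067 CPM in KO, 1251 to 1651 in APOE44 and 1172 to 1716 in APOE33. In wild type it was 1355 to 1610 CPM. The part of the markers of both kinds in these results was not tested.

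Against wild-type astrocytes the test passed for 1 of the 9 genes in KO, 2 in APOE44 and 2 in APOE33, where 38.3%, 41.7% and 39% of all genes tested passed. C1ra rose 2.40-fold in KO (log2 1.26 ± 0.17, adjusted p 1.74e-05), with 27.6 to 45.5 CPM in KO against 12.8 to 16.9 CPM in wild type, groups that do not overlap. C4b averaged 217 ± 51.1 CPM in APOE44 and 190.4 ± 36.2 CPM in APOE33, against 115 ± 15.4 CPM in wild type (SD, n = 6 each); it rose by log2 0.88 ± 0.16 in APOE44 (adjusted p 0.00029) and 0.70 ± 0.17 in APOE33 (0.00247). In KO astrocytes C4b averaged 129 ± 37.8 CPM (n = 4) and did not pass. Markers of the oligodendrocyte lineage rose in the same libraries, 9 of 12 in APOE44 and 10 of 12 in APOE33 astrocytes, with sums of 239 to 342 CPM in APOE44 and 211 to 239.7 CPM in APOE33, against 137 to 155 CPM in wild type; their part in the C4b result was not tested. C3 did not pass, at 1.59-fold the wild-type level in KO (log2 0.67 ± 0.28, adjusted p 0.0694) and 1.53-fold in APOE33 (0.61 ± 0.24, 0.0559); it passed without sex in KO (0.0286) and with DESeq2 (0.0434) or the 2 compared groups alone (0.0314) in APOE33. C5ar1 fell by 1.14 on the log2 scale in APOE44 astrocytes (adjusted p 0.0339) and C1ra rose by 0.44 in APOE33 astrocytes (0.0302). Both of these calls were lost without any 1 of several libraries, 6 for C5ar1 and 5 for C1ra. Microglial markers were lower in the same APOE44 astrocytes for 16 of 18 genes (median log2 −0.45; 1 fell by the test), and border macrophage and monocyte markers fell in 6 of the 7 tested (median −2.12), with sums of 6.71 to 18.6 CPM in APOE44 against 25.6 to 75.9 CPM in wild-type astrocytes. With the microglial marker level as a covariate, the fall of C5ar1 still passed. Apart from that fit, the part of these markers in the C5ar1 value was not tested.

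**Figure D5:**
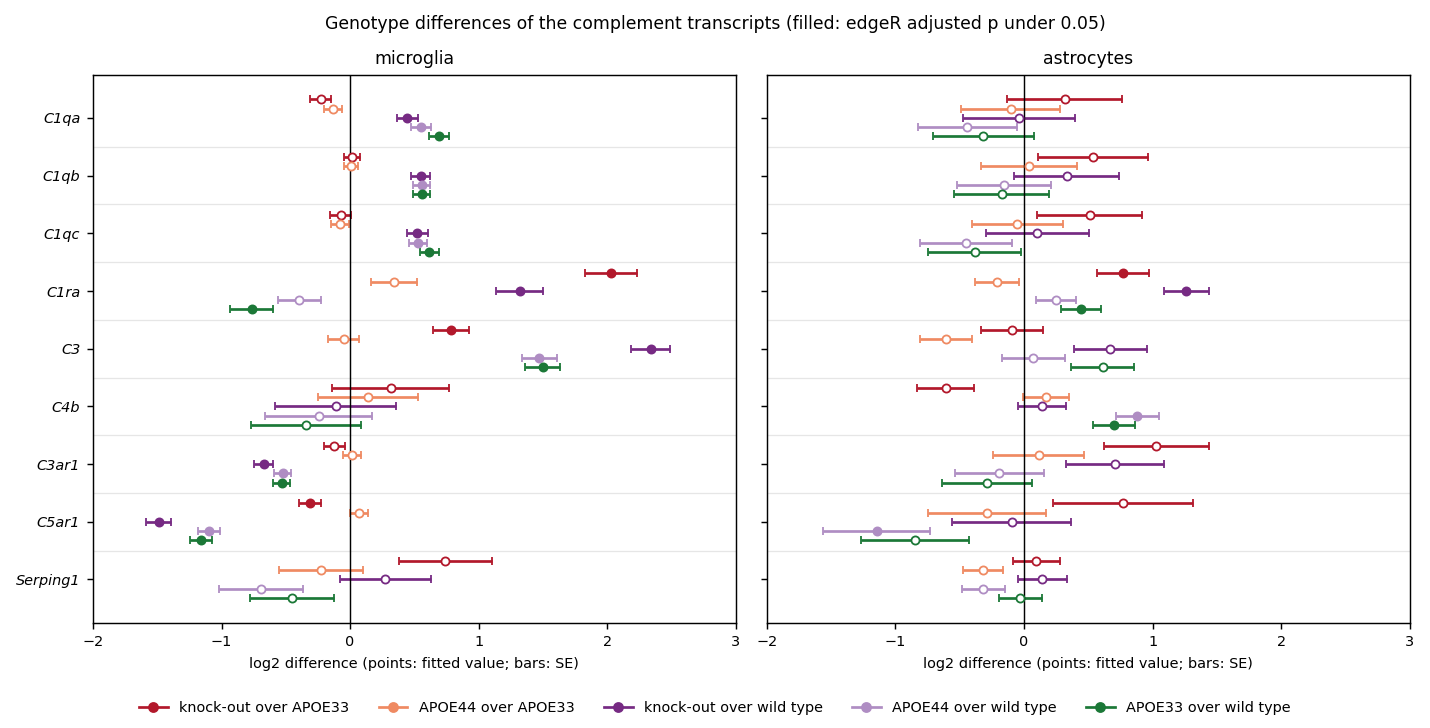
Log2 fold change between genotypes of the 9 genes in microglia (left) and astrocytes (right): KO and APOE44 against APOE33, and KO, APOE44 and APOE33 against wild type; bars are standard errors and filled points have an adjusted p under 0.05. In microglia C3 lies between 1.47 and 2.34 in the comparisons with wild type and C5ar1 between −1.49 and −1.10, and C1ra stands at 2.03 in KO against APOE33.

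Across 52 other genes of the pathway, of which 39 had enough counts to be tested between the cell types, the regulators were mostly lower in microglia. In APOE33, 12 were higher and 24 lower in microglia, and in KO, APOE44 and wild type 13, 13 and 14 were higher and 22, 23 and 23 lower. Over all genes, 37.3% were higher and 46.6% lower in APOE33, so the higher count is near that share. The median log2 ratio over the 39 genes was −1.85 in APOE33, against −0.25 over all genes tested. By role in APOE33, receptors were 7 higher and 2 lower of 9, regulators 1 higher and 12 lower of 14, and the other genes of the classical and lectin pathways 3 higher and 8 lower of 11. Itgam, a chain of complement receptor 3, was higher in microglia by log2 8.32. C1s1, the protease partner of C1ra, was lower in microglia by log2 −6.58, Hc, the C5 gene, by −7.95, and Clu, encoding clusterin, by −8.11. C1s1 and Serping1 were thus both lower in microglia, where the C1q chains were higher.

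In KO against APOE33 microglia, 8 of 29 genes of the wider list rose and 3 fell, where 10.9% of all genes rose and 11.9% fell, with a median log2 fold change of 0.11 against −0.02 over all genes. C1rl, a C1r-like gene next to C1ra, rose by log2 1.84 ± 0.21 (adjusted p 2.42e-05). Cd93, a surface protein first described as a C1q receptor, averaged 146 ± 6.84 CPM in KO (SD, n = 4) against 29.8 ± 14.7 CPM in APOE33 microglia (n = 6; log2 2.59). Among the genes that fell was Cd59a, an inhibitor of the membrane attack complex, with 10.6 ± 1.47 CPM in KO against 19.0 ± 3.18 CPM in APOE33 microglia (log2 −0.86). In KO astrocytes 4 of 35 rose and 2 fell, where 8.37% of all genes rose and 8.83% fell (median 0.21, against 0.0025 over all genes). C1s1 averaged 25.5 ± 5.04 CPM in KO astrocytes against 14.9 ± 3.74 CPM in APOE33 astrocytes (log2 0.69, adjusted p 0.0224), and Cd59a 17.5 ± 1.81 against 44.1 ± 6.92 CPM (log2 −1.35). As with C1ra, C1rl rose more in microglia than in astrocytes, by a log2 difference of 1.45. Between APOE44 and APOE33, edgeR called 0 of 29 wider genes in microglia and 0 of 35 in astrocytes, with 3 and 4 at an unadjusted p under 0.05. Against wild-type microglia, C5ar2, the second C5a receptor and neighbour of C5ar1, was lower by log2 −3.07 in KO, −2.93 in APOE44 and −2.78 in APOE33, with 1.85, 2.03 and 2.23 CPM on average against 15.4 CPM in wild type.

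Within a cell type, the genes whose levels varied most like each member were sought among 10839 genes in microglia and 12162 in astrocytes, by Pearson's r of deviations from the genotype means over 22 libraries, in the cell type where the member was higher. The libraries share preparation and depth, so these values are a description. C1qa varied most like C1qc (r = 0.97), and C1qb had r = 0.91 with C1qa and 0.90 with C1qc; outside the family, Saraf (0.90) was nearest to C1qa, Agpat3 (0.95) to C1qb and Cant1 (0.91) to C1qc. Of the receptors, C3ar1 was most like Exoc6b (0.94) and C5ar1 most like Ankrd40 (0.89), and the 2 receptors had r = 0.71 with each other. In astrocytes C1ra was most like C1s1 (0.92), the gene of its partner protease, followed by Mcl1 (0.91). C4b was most like Marcks (0.96), C3 like Osmr and Nes (0.86 each), and Serping1 like Cd44 (0.84). C3 and Serping1 had r = 0.83 with each other, C1ra and C3 0.69, and C1ra and Serping1 0.60.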

How the data were processed

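The 44 RNA-seq libraries of primary mouse microglia and astrocytes were analysed from 1 table of raw counts per gene that the authors deposited. STAR 2.5.3a, featureCounts, edgeR 3.26.8 and DESeq2 are named in the submitters' processing notes, which list hg38 as the only build; the mouse build is not given in the sources used here, nor is the annotation or the strand setting. The identifiers are those of mouse Ensembl genes: 54079 of 54146 matched GENCODE M21 (GRCm38) and 67 did not. Between 62.4% and 78.7% of low counts (1 to 9) were even numbers, so mates of a pair may have been counted separately, and counts are not independent molecules. Antisense reads and near-identical copies cannot be separated.

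Genes were filtered with filterByExpr, scaled by TMM and tested with edgeR 4.0.16 (R 4.3.3, quasi-likelihood F test, robust), with Benjamini-Hochberg adjustment over all genes at 0.05 and sex as a covariate. Microglia were set against astrocytes in 1 fit of the 44 libraries, which also gave the differences between cell types; KO and APOE44 against APOE33 in the 16 batch 1 libraries of a cell type; and wild-type comparisons in its 22 libraries. Standard errors were derived from the F statistic, and 95% intervals from its t quantile. The tests were also run on simulated counts, drawn independently with the same spread setting for all genes, which is simpler than these data. Alternatives were DESeq2 1.42.0 (its test and its size factors), no filter, other sets of libraries, no sex term, a replicate block, marker covariates and leaving out each library. Up to 4 called genes of the wider pathway in each direction (smallest adjusted p, mean of at least 1 CPM) and the 2 most alike genes per member (log2 of CPM plus 0.5) could be named. The members and lists were chosen with earlier results of these data known.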

Additional observations from a re-analysis of the deposited data

Results flagged for a closer look

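In 6 of 72 groups of a gene, cell type and genotype, the highest or lowest library stood apart from the others by Dixon's criterion; chance alone gives about 1 in 20 groups, or 3.6. Replicate 3 of APOE33 microglia was high for C1qa, with 5674 CPM against 4823 to 5051 CPM in the other libraries, and for C1qc, with 4554 CPM against 3811 to 3993 CPM. Replicate 3 of APOE44 microglia was high for C1ra, with 2.73 CPM against 1.46 to 1.91 CPM. Replicate 5 of APOE44 microglia was low for C3ar1, with 716 CPM against 838 to 879 CPM. Replicate 6 of APOE44 astrocytes was high for C4b, with 315 CPM against 166 to 218 CPM. Replicate 6 of wild-type astrocytes was low for Serping1, with 42.9 CPM against 62.3 to 72.5 CPM. The change of C1ra in KO against APOE33 differed between the cell types, being larger in microglia by 1.25 on the log2 scale in the test of the difference itself.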

How the results depend on the processing

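Over 16 comparisons, the 144 member results were recomputed 2754 times: 2693 kept their direction and their side of the threshold, 23 lost a call, 33 gained one and 5 reversed. In KO against APOE33 microglia, C1ra (log2 1.95 to 2.14) and C3 (0.66 to 0.98) passed under every alternative run. All 5 reversals came with the microglial marker level as a covariate in astrocytes: C1qa in KO against APOE33 (log2 −0.50), C1qb in KO against APOE33 (−0.24), C1qc in KO against wild type (−0.30), and C1qb against wild type in APOE44 (0.20) and APOE33 (0.15); with that covariate 4 members passed in KO against APOE33 astrocytes in place of 1, and 5 in KO against wild type in place of 1. For KO against APOE33 astrocytes, the count was 2 with DESeq2 and without sex, and 0 with no filter, with the 2 compared groups alone and with the replicate block. It was 2 without sex for KO against wild-type astrocytes, 1 with no filter for APOE44 and APOE33 against wild-type astrocytes (2 in the main result), and 1 with the replicate block for APOE33. For the difference between cell types in KO minus APOE33, DESeq2 and the 32 libraries of batch 1 gave 2 in place of 1.

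Leaving out each library in turn gave 1 to 4 members called in APOE33 against wild-type astrocytes, 1 to 3 in APOE44 against wild-type astrocytes, 0 to 2 in KO against APOE33 astrocytes, 1 to 2 in KO against wild-type astrocytes, 1 to 3 for the difference in KO minus APOE33, 2 to 4 in KO against APOE33 microglia and 6 to 7 in APOE44 against wild-type microglia; the other comparisons kept their counts. C5ar1 in APOE44 against wild-type astrocytes did not pass without APOE44 replicate 1, 2 or 4 or wild-type replicate 2, 3 or 5 (adjusted p 0.0554 to 0.0734), nor C1ra in APOE33 against wild-type astrocytes without APOE33 replicate 4, 5 or 6 or wild-type replicate 2 or 6. C3ar1 passed for the difference in KO minus APOE33 with DESeq2 (adjusted p 0.0315). The cause was not tested.

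Same-numbered microglia and astrocyte libraries shared their sex in 22 of 22 pairs, but their deviations correlated above 0.1 in 16 of 22 (range 0.0279 to 0.314), and 7 of 22 matched best with their own number, so the numbers were not taken to pair the libraries. In fits within a cell type, the replicate block instead tied same-numbered libraries of different genotypes. Their deviations correlated at −0.130 to 0.349 in KO with APOE33 astrocytes. The range was −0.537 to 0.391 in APOE33 with wild-type astrocytes and −0.181 to 0.241 in APOE44 with wild-type microglia. With this block, the call of C1ra ended in KO against APOE33 astrocytes (adjusted p 0.0983) and in APOE33 against wild-type astrocytes (0.0672). C1ra then passed in APOE44 against wild-type microglia (0.038). Whether those numbers pair anything is not given, so these changes cannot be read as an effect of pairing. Depth limits C4b and Serping1 in microglia, where a library held as few as 14 and 6 counts.

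The background counts over all genes moved more. For APOE44 against APOE33, 144 genes passed in microglia (408 with DESeq2, 51 with the replicate block) and 144 in astrocytes (323 and 70), and 195 for the difference between the cell types (639 and 95, with 84 under no filter and 64 in batch 1 alone). In KO against APOE33 astrocytes, 3522 genes passed, against 1760 with the 2 compared groups alone and 1892 with the block.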
